A study of Mus musculus with 24 samples.

Results

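The 9 genes Wnt3, Fgf8, Eomes, Mixl1, Gsc, Lhx1, Mesp1, Evx1 and Cer1 are genes of the mesendoderm and primitive streak, and the chromatin around them was compared between mouse embryonic stem cells with and without Smad2. Members were the ATAC-seq intervals overlapping a gene body of the set or the 20 kb on either side of it, on GRCm38. There were 99 such intervals of 299780 in the table of untreated cells (Ctrl) and 95 of 272268 in the table of inhibitor-treated cells (Paused). Nearly all intervals were 201 bases wide, so their values can be set beside each other. The genes and this rule were chosen by name and position, not by their values.

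The primitive streak forms at the posterior side of the embryo when the epiblast begins to gastrulate, and the cells that pass through it become mesoderm and definitive endoderm. Nodal, a ligand of the TGF-beta family, induces it: its receptors phosphorylate Smad2 and Smad3, which enter the nucleus with Smad4 and act at target genes with partners such as Foxh1 and Eomes. Wnt3 and Fgf8 are secreted signals of the streak, the transcription factors Eomes, Mixl1, Gsc, Lhx1, Mesp1 and Evx1 pattern its descendants, and Cer1 is a secreted antagonist of Nodal, Bmp and Wnt ligands made in anterior endoderm.

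The assay was ATAC-seq, whose Tn5 transposase cuts open chromatin and leaves sequencing adapters there. The cells were E14 embryonic stem cells grown on gelatin with serum and LIF. The lines were WT and the Smad2 knockout lines Smad2_KO1 and Smad2_KO2, each untreated (Ctrl) or after 12 hours in 200 nM of the mTOR inhibitor INK128, which puts such cells into a paused state (Paused). Each of the 6 groups had 4 libraries of 50000 cells. All lines share the E14 background and culture, and the labels do not say how the knockouts were made, whether each line is 1 clone, or whether the libraries of a group came from separate cultures, so p-values measure the spread between these libraries.

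Each value is a read count scaled by a factor that is shared by the whole library (normalized reads). Factors were 0.866 to 1.17 for Ctrl libraries and 0.755 to 1.33 for Paused ones, so a value of 10 stands for about 10 reads. Depth in intervals, in units of 1000000 reads, was 11.8 to 16.5 per Ctrl library and 11.5 to 20.0 per Paused library. In both tables the first principal component separated all WT from all KO libraries, and the second (10.1% of the variance in Ctrl, 10.5% in Paused) spread the WT libraries. In Paused, Smad2_KO1 replicate 2 and Smad2_KO2 replicate 2 differed by no more than sampling noise (chi-square per degree of freedom 1.001), although the labels put them in different lines. The 4 same-numbered pairs of the KO lines were the 4 closest of 66 library pairs in Paused (1.001 to 1.074, against at least 1.111 within a line), and 2 of the 4 were below every within-line pair in Ctrl (1.016 to 1.270 over the 4, against at least 1.110). A call in each line is therefore not a pair of independent tests. Both lines were also tested against the same 4 WT libraries with a shared estimate of the spread. A fit that averaged KO libraries of the same number is given beside the counts. It asks for an adjusted p under 0.05 in the averaged libraries alone, not in each line. Accessibility of the Smad2 promoter does not check the knockout; its interval was not called and took values of 301 to 410 normalized reads over the Ctrl libraries and 336 to 534 over the Paused ones. An interval was called when limma's test against WT gave an adjusted p under 0.05 in each KO line with the same sign; log2 changes are KO minus WT on the scale log2(value + 1). The median change of all tested intervals was 0.08 in Ctrl and, for Paused, 0.12 with the deposited scaling, and DESeq2 size factors brought the Paused medians of the lines from 0.12 and 0.11 to 0.01 and 0.01. Higher and lower in bulk chromatin cannot tell fewer open cells from less opening per cell.

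The promoters of Wnt3 and Lhx1 are shown because they were the promoter intervals of the set that were called. Each is the 250 bases before the annotated start, 5′ to 3′ on the strand of the gene, from RefSeq on GRCm38.p6, with the deposited interval in capitals. The Wnt3 promoter is chr11:103773925-103774174 (plus strand) with the Ctrl interval, and the Lhx1 promoter is chr11:84525535-84525784 (minus strand) with the Paused interval.
Wnt3: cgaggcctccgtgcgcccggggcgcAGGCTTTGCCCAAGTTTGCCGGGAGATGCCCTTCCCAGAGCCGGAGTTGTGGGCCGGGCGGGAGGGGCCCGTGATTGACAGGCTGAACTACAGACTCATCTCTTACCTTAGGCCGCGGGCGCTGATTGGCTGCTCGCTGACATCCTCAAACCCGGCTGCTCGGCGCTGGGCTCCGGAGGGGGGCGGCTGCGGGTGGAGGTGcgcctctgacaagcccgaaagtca
Lhx1: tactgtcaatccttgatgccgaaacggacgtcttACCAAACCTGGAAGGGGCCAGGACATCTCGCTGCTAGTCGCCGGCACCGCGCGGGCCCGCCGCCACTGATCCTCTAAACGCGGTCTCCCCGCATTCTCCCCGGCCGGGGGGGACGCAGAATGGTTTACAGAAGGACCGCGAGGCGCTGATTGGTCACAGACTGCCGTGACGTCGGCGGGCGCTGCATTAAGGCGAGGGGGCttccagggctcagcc
GC content was 68.0% in the Wnt3 stretch and 64.8% in the Lhx1 stretch. Both hold the letters CAGAC, the core bound by Smad3 and Smad4, once and inside the capitals, starting 135 bases before the Wnt3 start and 60 bases before the Lhx1 start. This short core was in 49.6% of 32851 RefSeq promoter windows (250 bases before to 50 after a start, both strands), and in 5 of the 7 member windows. A match is only a description of the letters. Mixl1 and Fgf8 had no window among these promoters. The Foxh1 core AATCCAC (2.49% of all windows) and the Sox core ACAATG (12.6%) were in none of the 7, and the T-box core GGTGTGA (3.98%) and the Tcf/Lef core CTTTGAT (3.73%) were in that of Mesp1 alone.

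In Ctrl, 11 of the 96 tested member intervals were called, 9 lower and 2 higher in the knockouts, where 7.15% of all tested intervals were called. The other 3 member intervals of Ctrl and 2 of Paused were below the level minimum for testing. Lower calls were 5 at Wnt3, 2 at Eomes and 2 at Fgf8, and the higher calls were 1 at Wnt3 and 1 at Evx1. In Paused, 10 of 93 were called, 7 lower and 3 higher, where 13.9% of all were called, so the members' share of 10.8% was below the background. These were 4 lower and 1 higher at Wnt3, 1 lower each at Eomes, Fgf8 and Lhx1, and 1 higher each at Gsc and Mixl1. Lower calls made up 3.2% of all tested intervals in Ctrl and 4.92% in Paused, and higher calls 3.95% and 9.01%. No Mesp1 or Cer1 interval was called in either table. At least 1 call was thus held by 4 of the 9 genes in Ctrl and 6 in Paused, against 50.8% and 73.5% of all gene windows. In single lines, 11 member intervals passed in Smad2_KO1 (11.6% of all did) and 19 in Smad2_KO2 (10.7%) in Ctrl, and 16 (19.4%) and 14 (19.3%) in Paused. The split depended on the scaling: with loess offsets along the mean level it was 1 higher and 14 lower in Ctrl (2.66% and 3.84% of all tested intervals), and 1 higher and 13 lower in Paused (4.61% and 5.04%). With DESeq2 size factors it was 2 higher and 11 lower in Paused (5.98% and 8.64% of all). With KO libraries of the same number averaged, 16 Ctrl and 18 Paused member intervals passed, where 13.0% and 19.8% of all did. That fit does not ask for a call in each line, so its counts cannot be set directly against those of the main fit.

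**Figure D1:**
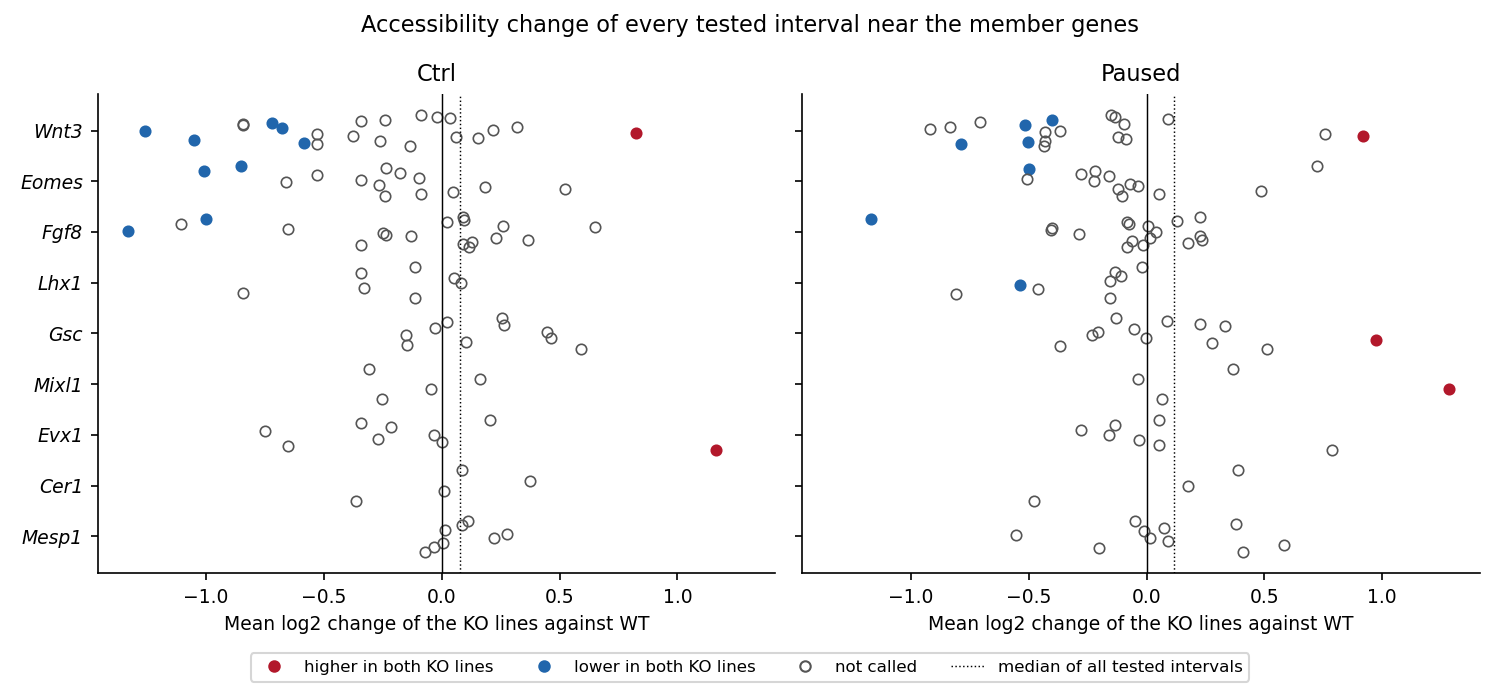
Mean log2 change of the 2 knockout lines against WT (horizontal axis) for every tested interval of each gene (vertical axis) in Ctrl and Paused; filled points were called in both lines and the dotted line is the median of all tested intervals. Wnt3 holds 6 of the 11 calls in Ctrl and 5 of the 10 in Paused, with 1 higher interval among lower ones in each table.

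Over both tables the WT mean of those called higher was 4.50 to 20.3 normalized reads (median 8.57), and that of those called lower was 21.5 to 166 (median 64.2). The call itself uses the WT values, so part of this gap is set by the selection. By percentile of the mean over all 12 libraries, those called higher lay at 6.84 to 61.3 (median 23.7). Those called lower lay at 23.1 to 91.5 (median 73.9). The levels of calls outside the members were not compared. Testing needed 4 libraries at 10 or more, which the Evx1 and Mixl1 intervals called higher met through the knockouts alone and 1 Fgf8 interval called lower met through WT alone. All 8 KO libraries lay below all 4 WT libraries at 5 tested member intervals in Ctrl and above at 1, where 3.32% of all tested intervals were below and 4.16% above (7.48% in all). In Paused they lay below at 5 and above at 4, against 4.2% and 7.25% of all (11.5% together). Between the knockout lines no member interval was called by limma, edgeR or DESeq2 (0 calls each). The same held for all tested intervals (0 of 282089 in Ctrl and 0 of 260539 in Paused). Unadjusted limma p-values under 0.05 were found for 2 of 96 Ctrl and 1 of 93 Paused member intervals, against 3.28% and 1.97% of all. In the authors' deposited table, which compares the 8 KO with the 4 WT libraries, 18 member intervals of Ctrl (3 higher, 15 lower) and 20 of Paused (7 higher, 13 lower) had a false discovery rate under 0.05, where 12.2% and 21.6% of all intervals did; they include all 11 and all 10 called here.

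Wnt3 (chr11:103774175-103818021), the ligand that starts the streak, had intervals that moved in opposite directions in both tables. Its window runs over the body of Wnt9b upstream, another Wnt ligand gene, and of Nsf downstream, which encodes a vesicle fusion ATPase. The promoter interval (chr11:103773950-103774150, centre 0.125 kb upstream of the start, also inside the annotated body of Wnt9b) was the strongest of the window and was lower in the knockouts. In Ctrl it read 159, 144, 157 and 205 in WT, 109, 84.3, 106 and 114 in Smad2_KO1, and 99.2, 81.9, 107 and 101 in Smad2_KO2. Every KO library was below every WT library. The log2 changes were -0.68 and -0.76 (SE 0.13 each; limma adjusted p = 0.000201 and 3.87e-05).

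In Paused the same promoter interval read 186, 138, 146 and 177 in WT, 95.0, 112, 141 and 117 in Smad2_KO1, and 102, 103, 118 and 113 in Smad2_KO2. The groups overlapped in 1 Smad2_KO1 library, which lay above the lowest WT library. The changes were -0.48 and -0.56 (SE 0.12 each; adjusted p = 0.00487 and 0.00115). Both promoter calls remained when any 1 library was left out and under each other scaling, filter, tool and grouping of libraries. They do not reach an absolute log2 change of 1, and drop out where Wnt3 must be the nearest gene.

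Inside the gene, 31.3 kb downstream of the start, the interval chr11:103805364-103805564 was higher in the knockouts. In Ctrl it read 16.0, 18.8, 14.2 and 10.8 in WT, 28.2, 21.6, 31.9 and 20.8 in Smad2_KO1, and 28.1, 31.9, 27.6 and 26.2 in Smad2_KO2. In Paused the matched interval read 18.4, 22.5, 21.6 and 18.5 in WT, 37.1, 40.8, 38.0 and 27.8 in Smad2_KO1, and 45.0, 47.2, 41.5 and 38.3 in Smad2_KO2. All KO libraries were above all WT libraries in both tables. The changes were 0.74 and 0.90 in Ctrl (SE 0.22 each; adjusted p = 0.0207 and 0.00467) and 0.79 and 1.05 in Paused (SE 0.18 each; adjusted p = 0.00238 and 0.00011). The Paused call remained under each other scaling, test, grouping and left-out library, but not at an absolute log2 change of at least 1. The Ctrl call, on 10 to 21 WT reads a library, was lost with loess offsets (adjusted p = 0.0622), with DESeq2 (adjusted p = 0.15), and without WT replicate 4 (adjusted p = 0.0872), Smad2_KO1 replicate 1 (adjusted p = 0.0719) or Smad2_KO1 replicate 3 (adjusted p = 0.0949).

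**Figure D2:**
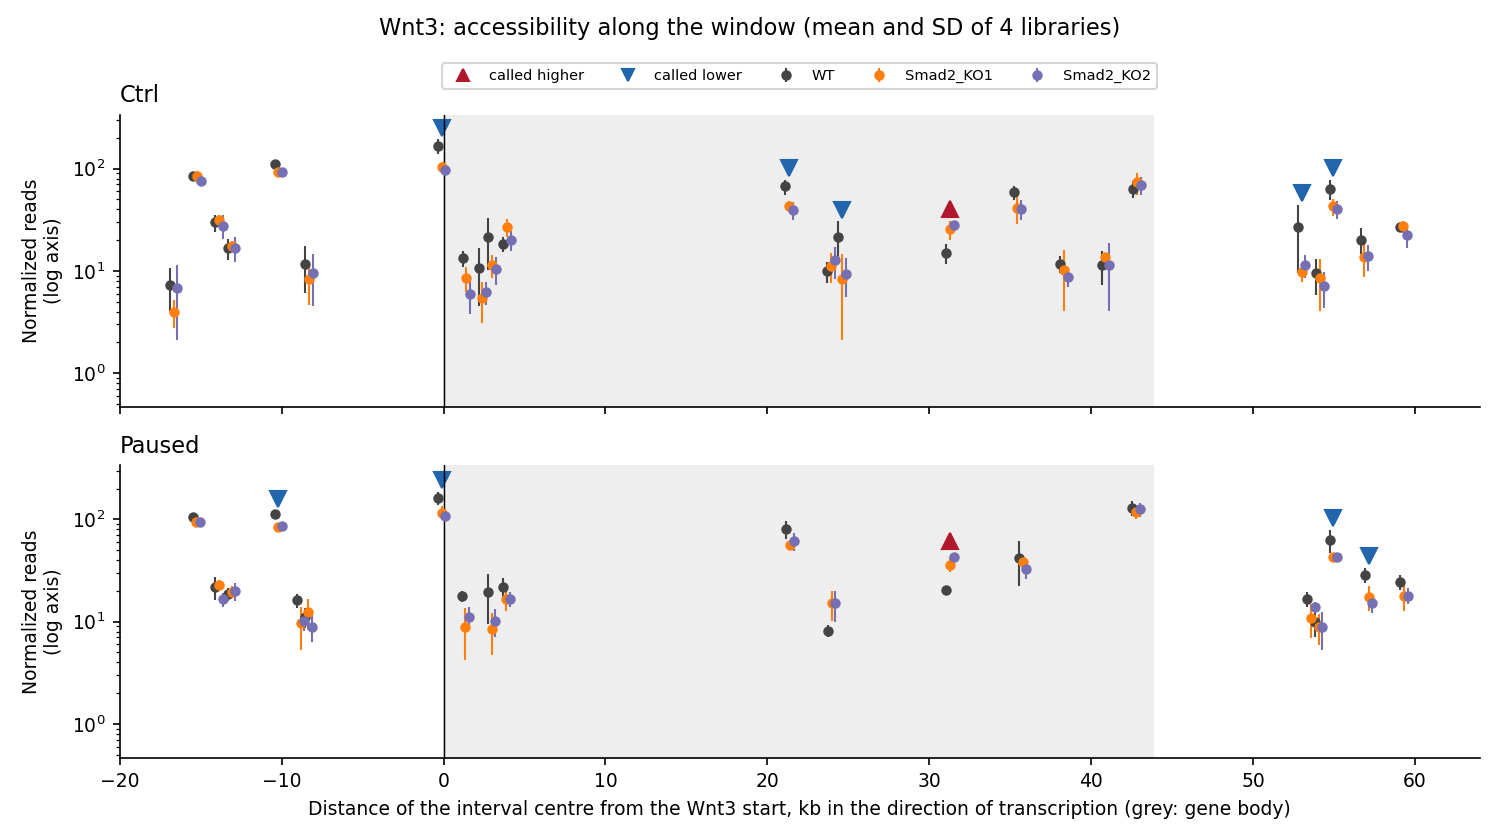
Normalized reads (log axis, mean and SD of 4 libraries per line) of each interval against its distance from the Wnt3 start in kb, for Ctrl and Paused; triangles mark called intervals and grey the gene body. The promoter interval is below WT in both knockout lines, and the interval 31.3 kb into the gene is above it.

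Other Wnt3 intervals were lower. In Ctrl an interval within the gene body, 24.6 kb from the start, had WT values of 16.0, 12.5, 25.2 and 32.4, Smad2_KO1 values of 6.84, 17.5, 5.62 and 3.47, and Smad2_KO2 values of 4.01, 10.9, 9.56 and 13.1. Groups overlapped there, and WT replicates 3 and 4 were the highest libraries. The changes were -1.39 and -1.13 (SE 0.36 each; adjusted p = 0.00773 and 0.0343), and the call was lost without WT replicate 3 (adjusted p = 0.095), WT replicate 4 (adjusted p = 0.16), Smad2_KO2 replicate 1 (adjusted p = 0.176) or Smad2_KO2 replicate 3 (adjusted p = 0.0575), and with DESeq2 (adjusted p = 0.0505). A further interval at 21.3 kb, named after its values were seen, was called lower in Ctrl, where WT libraries averaged 67.0 ± 11.3, Smad2_KO1 43.6 ± 5.03 and Smad2_KO2 39.3 ± 8.07 (SD, n = 4 each). In Paused it passed in Smad2_KO1 alone (adjusted p = 0.0226 and 0.0752).

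Past the end of Wnt3, in the body of Nsf, the interval 55.0 kb from the start was called lower in both tables. There WT libraries averaged 63.2 ± 14.3, Smad2_KO1 42.9 ± 8.12 and Smad2_KO2 40.5 ± 8.07 in Ctrl, and the means were 62.8 ± 16.1, 42.7 ± 3.52 and 43.2 ± 2.51 in Paused (SD, n = 4 each). WT overlapped the knockouts in both. The Paused call (adjusted p = 0.0264 and 0.0328) depended on single libraries: without WT replicate 1 it had adjusted p = 0.154, and it was also lost without WT replicate 2 or 3, Smad2_KO1 replicate 1 or 3, or Smad2_KO2 replicate 1, 3 or 4 (adjusted p = 0.0597 to 0.0782). Another Nsf interval, 53.0 kb from the start in Ctrl, read 17.1, 8.96, 48.2 and 33.4 in WT against 6.93 to 15.0 over the KO libraries. The mean change of the lines was -1.05 (adjusted p = 0.0128 and 0.0485), and -0.24 (adjusted p = 0.892) without WT replicates 3 and 4. The call was lost without either of them alone (adjusted p = 0.292 and 0.188), and without Smad2_KO1 replicate 1 or 3 or Smad2_KO2 replicate 2, 3 or 4 (adjusted p = 0.0539 to 0.132). In Paused an interval 57.1 kb from the start read 25.9, 32.2, 23.7 and 33.1 in WT and 12.0 to 24.8 in the knockouts (changes -0.70 and -0.87, SE 0.24 each; adjusted p = 0.0319 and 0.00823). The last lower call in Paused lies 10.2 kb upstream of the start in the body of Wnt9b and was named after its values were seen: WT libraries averaged 113 ± 7.67, Smad2_KO1 84.8 ± 6.60 and Smad2_KO2 85.2 ± 3.00 (adjusted p = 0.0136 and 0.0158). The call at 57.1 kb was lost without WT replicate 2 (adjusted p = 0.0717), WT replicate 4 (adjusted p = 0.087), or Smad2_KO1 replicate 1, 2 or 3 (adjusted p = 0.0814, 0.0855 and 0.0907).

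Genes with called intervals in both directions were not rare. Of 20237 protein-coding gene windows with a tested interval in Ctrl, 10.2% held calls of both signs, and 13.7% of windows with a number of tested intervals like that of Wnt3. In Paused these shares were 25.8% of 20097 windows and 35.6%. Wnt3 was the 1 member gene of this kind in either table.

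Fgf8 (chr19:45736491-45742941), a growth factor needed for cells to move away from the streak, was lower at a distal interval in both tables. The interval chr19:45719114-45719314, 17.2 kb below the lower-coordinate end of the gene body and in no annotated gene, read 37.4, 34.9, 27.4 and 41.0 in WT, 10.3, 20.6, 18.7 and 18.5 in Smad2_KO1, and 12.0, 11.8, 22.3 and 28.2 in Smad2_KO2 in Ctrl. In Paused its match read 35.6, 35.4, 23.7 and 30.5 in WT, 16.2, 9.97, 13.0 and 17.9 in Smad2_KO1, and 9.99, 9.75, 11.2 and 21.9 in Smad2_KO2. Groups overlapped by 1 Smad2_KO2 library in Ctrl and did not overlap in Paused. The changes were -1.03 and -0.96 in Ctrl (SE 0.25 each; adjusted p = 0.00356 and 0.00704) and -1.10 and -1.24 in Paused (SE 0.26 each; adjusted p = 0.00276 and 0.000864). Both remained called without any 1 library, and the Paused call was lost without WT replicates 1 and 2 together (mean change -0.98, adjusted p = 0.0551).

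Closer to Fgf8, 1.07 kb from the same end, an interval was called lower in Ctrl with values of 15.0, 11.6, 29.6 and 33.4 in WT, 8.55, 8.22, 9.37 and 9.24 in Smad2_KO1, and 6.01, 5.46, 8.50 and 6.04 in Smad2_KO2. WT replicates 3 and 4 were again highest, and all KO libraries were below all WT libraries. The changes were -1.13 and -1.53 (SE 0.33 each; adjusted p = 0.0168 and 0.00112). The interval passed the level minimum for testing through the 4 WT libraries alone, so the call was not tested without any 1 of them; it remained without any 1 KO library. Its Paused match was not called (17.9 ± 13.3, 11.5 ± 3.11 and 11.4 ± 3.86, SD, n = 4 each; changes -0.39 and -0.42). The strongest interval of the Ctrl window lies 0.081 kb beyond the higher-coordinate end of Fgf8. There WT libraries averaged 118 ± 18.9, Smad2_KO1 91.7 ± 15.7 and Smad2_KO2 108 ± 13.9 in Ctrl, and it was not called in either table, though it passed in Paused without WT replicate 3 (mean change -0.44, adjusted p = 0.0496). Intervals inside Oga and Npm3, the neighbouring genes, were not called either.

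Eomes (chr9:118478186-118486132), a T-box factor needed for both definitive endoderm and early mesoderm and a partner of Smad2, was lower at upstream intervals, and its interval nearest the start was not called. The interval chr9:118468276-118468476, 9.81 kb upstream of the start and in the body of the long noncoding RNA gene Gm33408, read 75.8, 71.7, 64.6 and 73.3 in WT, 39.3, 29.8, 45.0 and 39.3 in Smad2_KO1, and 38.1, 40.0, 40.4 and 42.3 in Smad2_KO2 in Ctrl. In Paused it read 69.1, 64.4, 54.0 and 74.2 in WT, 51.3, 39.9, 47.5 and 42.7 in Smad2_KO1, and 42.0, 52.5, 39.3 and 52.5 in Smad2_KO2. No KO library reached a WT library in either table. The changes were -0.89 and -0.81 in Ctrl (SE 0.16 each; adjusted p = 0.000123 and 0.000433) and -0.52 and -0.48 in Paused (SE 0.16 each; adjusted p = 0.0169 and 0.0249). The Ctrl call remained under each other scaling, test, grouping and left-out library; it is under an absolute log2 change of 1 and outside windows of 5 kb. The Paused call was lost without WT replicate 1 (adjusted p = 0.062), WT replicate 4 (adjusted p = 0.0757), Smad2_KO1 replicate 2 (adjusted p = 0.0657), Smad2_KO2 replicate 1 (adjusted p = 0.0751) or Smad2_KO2 replicate 3 (adjusted p = 0.0922).

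A second Eomes interval, chr9:118471401-118471601, 6.69 kb upstream and also in Gm33408, was lower in Ctrl and read 63.0, 44.8, 70.1 and 83.0 in WT, 33.3, 23.7, 40.3 and 35.8 in Smad2_KO1, and 22.1, 30.0, 36.1 and 32.2 in Smad2_KO2. The groups did not overlap, and the changes were -0.94 and -1.08 (SE 0.19 each; adjusted p = 0.000572 and 0.0001). Without WT replicates 3 and 4 together, the mean change was -0.75 (adjusted p = 0.0573). In Paused the matched interval was not called: WT libraries averaged 27.5 ± 2.87, Smad2_KO1 21.8 ± 6.10 and Smad2_KO2 24.2 ± 5.96 (SD, n = 4 each; adjusted p = 0.263 and 0.549). The WT mean was thus 65.2 in one table and 27.5 in the other. The tables have separate intervals and scaling, so this is no test of pausing.

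The Eomes interval nearest the start, 1.01 kb into the gene in Ctrl, was not called: WT libraries averaged 149 ± 20.6, Smad2_KO1 125 ± 16.3 and Smad2_KO2 136 ± 7.88 (SD, n = 4 each; adjusted p = 0.182 and 0.577). The strongest interval of the Paused window, 19.0 kb from the start and nearer to Golga4, averaged 222 ± 14.1 in WT cells and 234 ± 17.0 and 227 ± 6.67 in the knockouts.

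**Figure D3:**
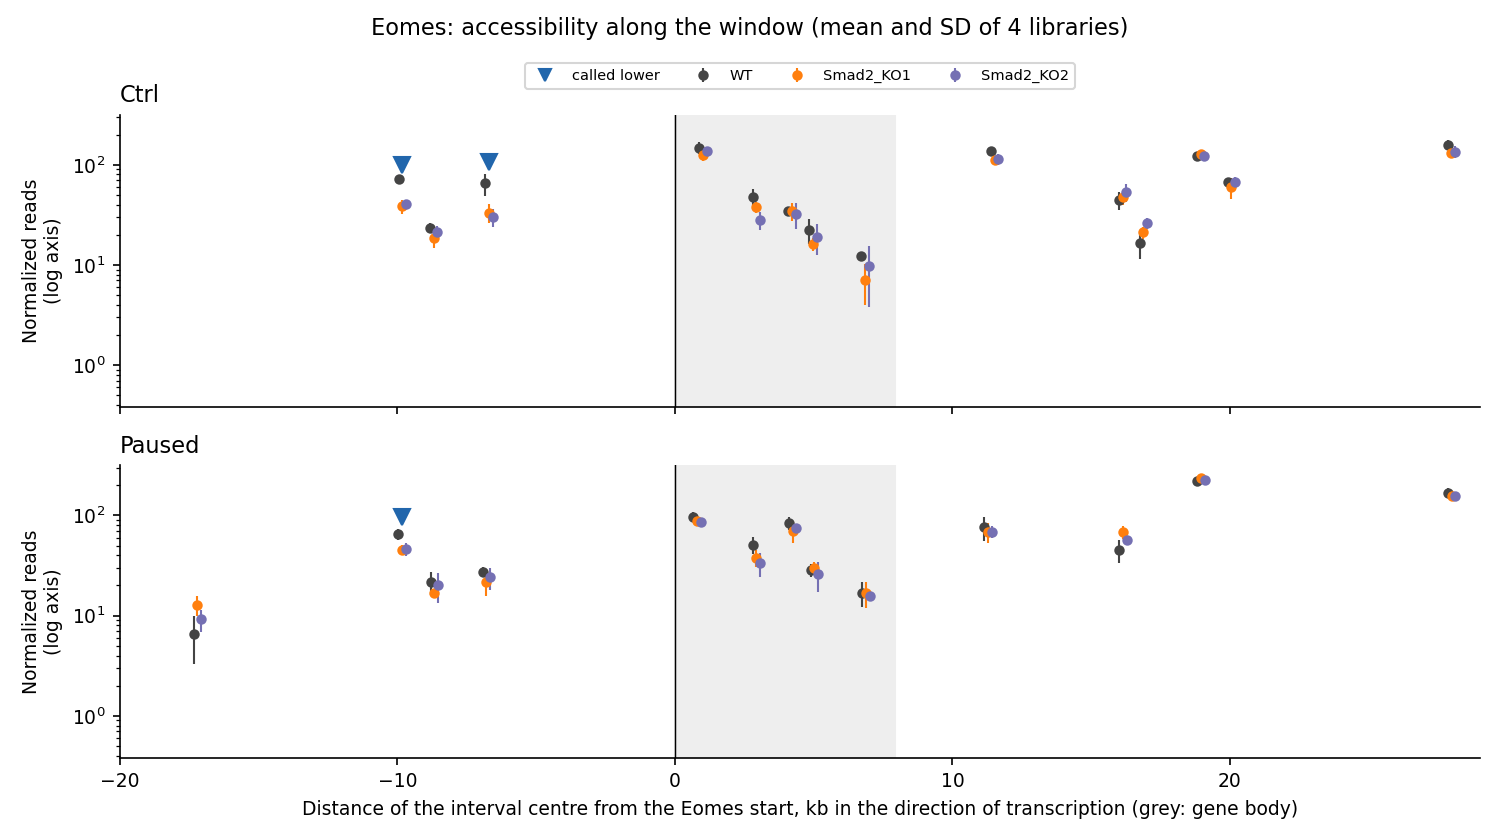
Normalized reads (log axis, mean and SD of 4 libraries per line) of each interval against its distance from the Eomes start in kb, for Ctrl and Paused; triangles mark called intervals and grey the gene body. Intervals 9.81 and 6.69 kb upstream are lower in both knockout lines in Ctrl, while no interval in the gene body was called.

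Lhx1 (chr11:84517975-84525534), a LIM homeodomain factor of anterior mesendoderm, was lower at its promoter in Paused. The interval chr11:84525550-84525750, the capitals in the Lhx1 sequence printed earlier, also lies in the antisense gene Lhx1os. It read 120, 84.8, 82.0 and 105 in WT, 65.6, 66.2, 60.5 and 80.5 in Smad2_KO1, and 63.9, 66.0, 55.0 and 76.6 in Smad2_KO2. All KO libraries were below all WT libraries, with changes of -0.51 and -0.57 (SE 0.14 each; adjusted p = 0.0102 and 0.00433). Without WT replicate 1, the highest, the call was lost (adjusted p = 0.0586). In Ctrl the promoter interval shared 95 of its 201 bases (47.3%) with it, under the 50% needed to match, and was not called: WT libraries averaged 54.2 ± 2.37, Smad2_KO1 38.6 ± 7.75 and Smad2_KO2 50.0 ± 14.7 (adjusted p = 0.0524 and 0.624). The strongest interval of the window lies in the neighbouring gene Aatf, 12.0 kb downstream of the Lhx1 start, and did not pass the test (293 ± 46.0, 288 ± 25.2 and 315 ± 19.4 in Ctrl).

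**Figure D4:**
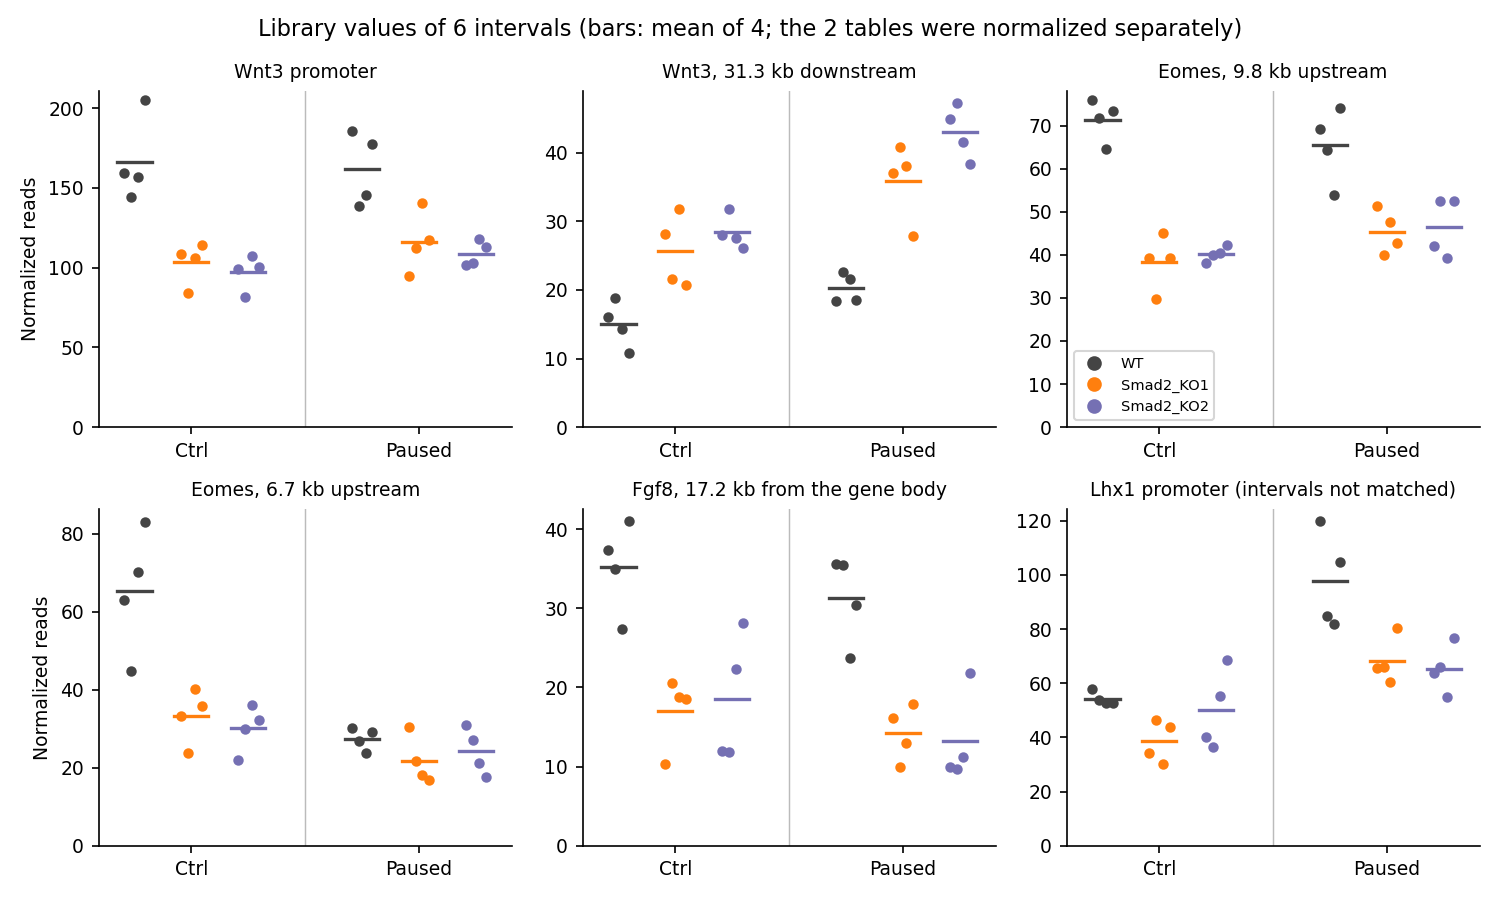
Normalized reads of single libraries (points) and group means (bars) at 6 intervals, with WT, Smad2_KO1 and Smad2_KO2 side by side within Ctrl and Paused. The Wnt3 interval 31.3 kb downstream of the start is the 1 panel in which the knockouts lie above WT, and the Eomes interval 6.69 kb upstream is separated in Ctrl alone.

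Gsc (chr12:104471209-104473236), a homeobox repressor of the organizer, and Mixl1 (chr1:180693043-180697034), a homeobox factor of nascent mesendoderm, each had 1 weak interval called higher in Paused. The Gsc interval chr12:104482154-104482354, 9.02 kb upstream of the start and in the noncoding gene Gm10000, read 4.32, 10.7, 8.63 and 10.6 in WT, 23.8, 21.8, 19.0 and 11.9 in Smad2_KO1, and 15.0, 18.8, 15.7 and 13.1 in Smad2_KO2 (changes 1.10 and 0.85, SE 0.29 each; adjusted p = 0.00748 and 0.0358). The Mixl1 interval chr1:180702539-180702739, 5.50 kb from the gene body and in no annotated gene, read 4.32, 3.22, 6.47 and 3.97 in WT, 16.2, 15.4, 10.4 and 10.9 in Smad2_KO1, and 16.0, 12.8, 10.1 and 7.66 in Smad2_KO2 (changes 1.38 and 1.19, SE 0.35 each; adjusted p = 0.00477 and 0.0144). In each the KO libraries were above all WT libraries, on 4 to 10 WT reads at Gsc and 3 to 6 at Mixl1. The Mixl1 interval met the level minimum for testing through KO libraries alone, the libraries in which it is high. The Gsc call was lost with DESeq2 size factors (adjusted p = 0.0595), TMM factors (adjusted p = 0.0559), loess offsets (adjusted p = 0.199), edgeR (adjusted p = 0.0669), DESeq2 (adjusted p = 0.173), and without WT replicate 1 (adjusted p = 0.156) or Smad2_KO2 replicates 1, 2 or 3 (adjusted p = 0.0648, 0.112 and 0.071). The Mixl1 call was lost with loess offsets (adjusted p = 0.12), DESeq2 (adjusted p = 0.068) and without Smad2_KO2 replicate 1 (adjusted p = 0.0675).

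The promoter interval of Gsc did not pass the test. Mixl1 had no promoter window, and the strongest interval within 1000 bases of its gene body did not pass either. At the Gsc promoter, WT libraries averaged 101 ± 11.9, Smad2_KO1 101 ± 7.43 and Smad2_KO2 95.4 ± 2.75 in Ctrl, and the means were 129 ± 15.6, 119 ± 9.72 and 129 ± 12.0 in Paused. This Mixl1 interval, within the gene body, averaged 138 ± 25.8, 137 ± 28.8 and 129 ± 12.0 in Ctrl, and 166 ± 37.7, 159.7 ± 18.1 and 159.9 ± 12.4 in Paused (SD, n = 4 each). WT and knockout libraries overlapped at both.

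Evx1 (chr6:52313498-52318389), a homeobox factor of the posterior streak, had 1 interval called higher in Ctrl, chr6:52333504-52333704, 20.1 kb downstream of the start. It read 3.20, 6.27, 9.86 and 2.16 in WT, 12.0, 9.25, 9.37 and 17.3 in Smad2_KO1, and 12.0, 10.0, 12.8 and 13.1 in Smad2_KO2. The WT replicate 3 library lay among the knockouts. This interval met the level minimum for testing through KO libraries alone, the libraries in which it is high. The changes were 1.15 and 1.18 (SE 0.37 each; adjusted p = 0.0318 and 0.0282), and with 2 to 9 WT reads the call was lost with edgeR (adjusted p = 0.0719), DESeq2 (adjusted p = 0.175), loess offsets (adjusted p = 0.101) and without WT replicate 1 or 4, Smad2_KO1 replicate 1 or 4, or Smad2_KO2 replicate 1, 3 or 4 (adjusted p = 0.0648 to 0.134). In Paused its match passed in Smad2_KO1 alone (7.38 ± 1.41, 16.1 ± 5.22 and 11.5 ± 2.00; adjusted p = 0.022 and 0.186). The interval nearest the Evx1 start averaged 40.4 ± 6.69 in WT in Ctrl, and the strongest, 7.18 kb upstream, 141 ± 9.43; neither passed the test.

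Mesp1 (chr7:79792241-79793590), the basic helix-loop-helix factor of the earliest cardiac and head mesoderm, had 8 tested intervals in Ctrl and 10 in Paused, none called by limma. Mean changes of its intervals lay between -0.07 and 0.28 in Ctrl, and between -0.55 and 0.58 in Paused. The interval nearest its promoter, 0.792 kb into the gene in Ctrl, did not pass: WT libraries averaged 101 ± 5.98, Smad2_KO1 114 ± 18.0 and Smad2_KO2 123 ± 8.84 in Ctrl, and the means were 159 ± 12.4, 159.8 ± 3.55 and 161 ± 11.1 in Paused. Intervals in the neighbouring genes Wdr93 and Mesp2, the close relative of Mesp1, were not called.

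Cer1 (chr4:82881751-82885151) had no interval called. Of its tested intervals, 1 of 4 in Ctrl and 1 of 3 in Paused had a negative mean change. The strongest interval, 2.45 kb into the gene, read 50.2, 49.3, 44.9 and 52.8 in WT, 65.8, 55.5, 81.5 and 50.8 in Smad2_KO1, and 55.1, 78.3, 74.4 and 58.4 in Smad2_KO2 in Ctrl. The interval 1.15 kb upstream read 53.4, 56.4, 77.8 and 55.0 in WT, 54.7, 46.3, 48.7 and 42.7 in Smad2_KO1, and 55.1, 34.6, 42.5 and 49.3 in Smad2_KO2. WT and knockout libraries overlapped at both; the upstream interval was chosen after its values were seen. In Ctrl the changes were 0.34 and 0.41 within the gene (adjusted p = 0.155 and 0.0788) and -0.32 and -0.41 upstream (adjusted p = 0.209 and 0.0934). In Paused they were 0.35 and 0.42 (adjusted p = 0.0997 and 0.0495) and -0.41 and -0.55 (adjusted p = 0.0748 and 0.018), so each passed in Smad2_KO2 alone. The promoter interval was weak, at 14.2 ± 3.57 in WT in Ctrl and 14.8 ± 4.22 in Paused, and did not pass the test. Its mean changes were 0.009 in Ctrl and 0.17 in Paused.

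Summed over each window, Wnt3 was lower in both tables, Eomes in Ctrl and Lhx1 in Paused, among windows of which 8.35% were called in Ctrl (5% lower) and 27.1% in Paused (20.5% lower). Per kb of window, the Wnt3 sum was 10.7 ± 0.762 in WT, 8.62 ± 0.469 in Smad2_KO1 and 8.17 ± 0.211 in Smad2_KO2 in Ctrl (SD, n = 4 each), and 11.1 ± 1.08, 9.00 ± 0.357 and 9.05 ± 0.403 in Paused. The changes were -0.31 and -0.38 in Ctrl (SE 0.06 each; limma adjusted p = 0.000415 and 1.52e-05) and -0.29 and -0.29 in Paused (SE 0.06 each; adjusted p = 0.000217 and 0.000223). These Wnt3 sums include intervals in Wnt9b and Nsf, and were called in all settings tried. The Eomes window was the most accessible per kb in Ctrl WT cells, at 20.2 ± 0.680, against 16.9 ± 0.846 and 17.4 ± 0.632 in the knockouts (changes -0.26 and -0.21, SE 0.06 each; adjusted p = 0.0018 and 0.0102). It was not called without WT replicate 4 (adjusted p = 0.0536). The Lhx1 window in Paused had 13.5 ± 1.74, 11.5 ± 0.573 and 11.8 ± 0.248 (changes -0.23 and -0.19; adjusted p = 0.00702 and 0.0269), and was lost with library totals, edgeR, DESeq2 or loess offsets (adjusted p = 0.064 to 0.128) and without WT replicate 1 (adjusted p = 0.162), WT replicate 4 (adjusted p = 0.102), Smad2_KO2 replicate 2 (adjusted p = 0.0609) or Smad2_KO2 replicate 3 (adjusted p = 0.0704). Mixl1 and Cer1 had the lowest sums in both tables, and the other member windows did not pass. With DESeq2 size factors the Paused windows of Eomes (mean change -0.19, adjusted p = 0.0227) and Fgf8 (-0.19, adjusted p = 0.0133) were also called lower, where 50.5% of all Paused windows were called (47.9% lower). Those factors took the median change over all Paused windows from -0.04 and -0.06 to -0.15 and -0.16 in the lines. The Fgf8 window in Paused was also called lower with loess offsets (mean change -0.15, adjusted p = 0.0387), where 21.2% of all windows were called (12.4% lower). It passed with windows of 50 kb too (-0.13, adjusted p = 0.0289), where 30.9% were called (23.9% lower).

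**Figure D5:**
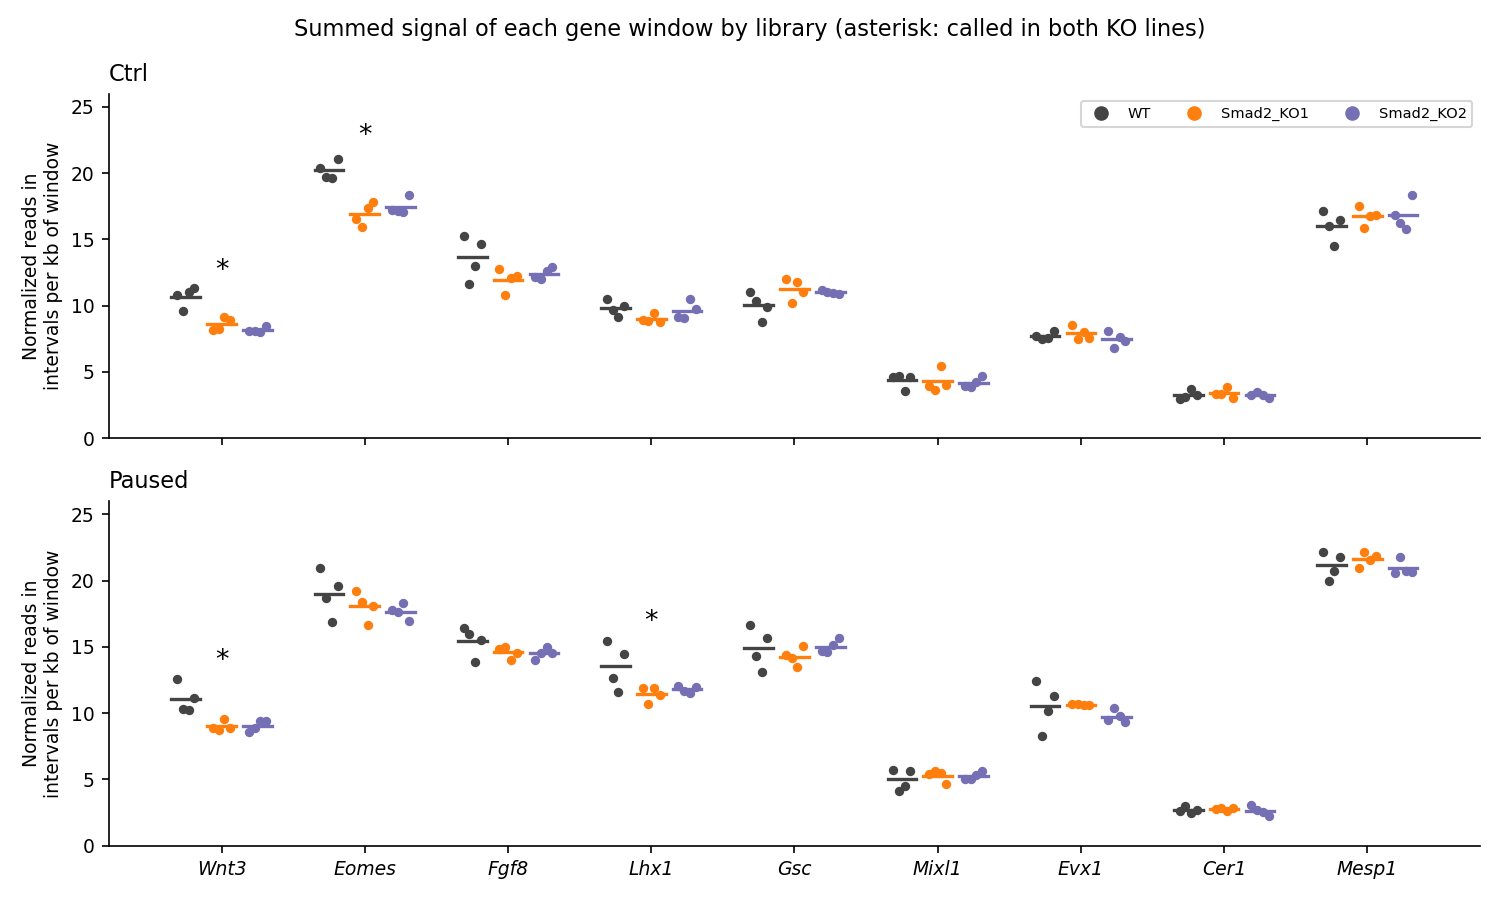
Summed normalized reads in intervals per kb of window (vertical axis) for each gene, by library (points) with the group mean (bars), in Ctrl and Paused; an asterisk marks windows called in both knockout lines. Wnt3 carries an asterisk in both panels, and Mixl1 and Cer1 are the lowest.

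By likeness over the 12 libraries of a table, the windows nearest to Wnt3 among 20366 gene windows in Ctrl were Olfr1033, Olfr1034 and Vwa3a (Pearson r of log2 sums 0.99, 0.98 and 0.97), and in Paused Cnn2, Supt4a and Itpr3 (0.98 each) among 20215. The points share libraries and the WT to KO difference, and nothing more is read from these values.

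Between the tables, 71 member intervals were matched by at least 50% overlap, 70 of them tested in both. Of these, 78.6% had the same sign of mean change, against 77.9% of 208526 matched intervals in all, and Pearson's r across intervals was 0.77 for the members and 0.74 for all. Of the 9 matched intervals called in Ctrl, all 9 had the same sign in Paused, as did 16908 of 17074 such intervals in all. Of the 9, 5 were called in Paused (55.6%), where 60.0% of all intervals called in Ctrl and matched were also called in Paused. Those 5 were the Wnt3 promoter, the Wnt3 interval 31.3 kb downstream, the Nsf interval at 55.0 kb, the Eomes interval 9.81 kb upstream and the Fgf8 interval 17.2 kb from the gene. No matched interval was called in opposite directions.

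Related genes were counted for context, where 7.15% of all tested intervals were called in Ctrl and 13.9% in Paused. Among 14 other streak and mesoderm genes, 11 of 183 tested intervals were called in Ctrl (1 higher, 10 lower; 6.01%) and 26 of 187 in Paused (10 higher, 16 lower; 13.9%). T, the brachyury gene of the streak, held 3 of those lower calls in Ctrl and 2 in Paused, on 12 and 14 tested intervals. Msgn1 held 3 of the higher calls in Paused, on 11 tested intervals. Among 12 genes of endoderm and the anterior organizer the counts were 11 of 115 (9.57%, 4 higher and 7 lower) and 14 of 122 (11.5%, 3 higher and 11 lower). Among 15 genes of the Nodal pathway they were 29 of 314 (9.24%, 9 higher and 20 lower) and 53 of 319 (16.6%, 23 higher and 30 lower). Lefty1 and Lefty2, feedback antagonists of Nodal, held 10 of the Ctrl and 10 of the Paused lower calls. Pcsk6 went mostly the other way, with 4 higher and 0 lower calls of 47 tested in Ctrl. In Paused it had 12 higher and 2 lower calls of 45 tested. Median changes of the 3 lists were -0.03, -0.05 and 0.02 in Ctrl and -0.07, 0.03 and 0.04 in Paused, below the 0.08 and 0.12 of all tested intervals.

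Embryonic stem cell markers were open at or near their promoters in all lines: the WT means of the 7 ran from 52.1 (Pou5f1) to 468 (Zfp42) in Ctrl, and none was called there. In Paused, Klf4 was called higher, at an interval within 1000 bases of its gene body and not in its promoter window. Every marker of fibroblasts (5), neural cells (4), trophoblast (4) and primitive endoderm (4) also had an interval. Where none overlapped the promoter window, the strongest within 1000 bases of the gene body was taken. That was so for every fibroblast and primitive endoderm marker. List medians ran from 72.8 to 230.2 in WT Ctrl cells, so these lists do not set cell types apart. Thy1 in both tables and Col1a1 in Paused were called lower, at intervals outside the promoter window, and Elf5 was called higher at its promoter in Paused. Their part in the member results was not tested.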

How the data were processed

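The deposited signal values are read counts that the authors scaled by a factor shared by the whole library, in 1 table per treatment, and whole reads were recovered from their steps (100.0% of values, to within 0.02 normalized reads). The submitters' processing notes name FastQC, Trim Galore, Bowtie2 2.4.1, MACS3 3.0.3, DiffBind 3.16.0 and mm10 (GRCm38). The deposited log2 fold changes and concentrations, and the deposited p-values and false discovery rates (FDR), are the authors' own comparison of KO with WT. Each table was scaled separately, so Ctrl and Paused were compared by description only.

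Intervals with at least 4 libraries at 10 or more were tested with limma 3.58.1 (R 4.3.3; trended moderation, line as factor, all 12 libraries of a table) on log2(value + 1), with Benjamini-Hochberg adjustment over all 282089 or 260539 tested intervals. Window sums (gene body and 20 kb each side) were tested in the same way over all protein-coding genes. The procedure was tested on simulated data. Where 1 p is given for a call that was lost, it is the larger of the lines. Alternatives used edgeR 4.0.16 and DESeq2 1.42.0 on recovered reads, other scalings, filters, windows and groupings, and each library left out. Named intervals were each gene's promoter and strongest interval, up to 3 calls per direction with the largest change, and their matches in the other table. Where no interval overlapped a promoter window, the strongest within 1000 bases of the gene body stood in for the promoter interval. The members, lists and tests were chosen with earlier results of these data known.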

Additional observations from a re-analysis of the deposited data

Results flagged for a closer look

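Among 162 groups of 4 libraries searched, 8 held 1 library far from the other 3, and chance alone is expected to give 8.1. Smad2_KO2 replicate 4 in Ctrl stood above its group at the Wnt3 interval 21.3 kb from the start (51.32 normalized reads, against 34.58 to 36.07), in the Wnt3 window sum (8.49 per kb, against 8.03 to 8.09) and in the Eomes window sum (18.4 per kb, against 17.0 to 17.2). In Paused the same replicate of that line was high at the Fgf8 interval 17.2 kb from the gene (21.88, against 9.75 to 11.23). Smad2_KO1 replicate 4 in Paused was high at the Wnt3 window interval 57.1 kb from the start (24.83, against 14.68 to 15.41) and at the Fgf8 interval beside the higher-coordinate end of the gene (140.04, against 99.68 to 103.66). WT replicate 3 in Ctrl was low in the Mixl1 window sum (3.56 per kb, against 4.61 to 4.72). Smad2_KO2 replicate 2 in Paused was high in the Mesp1 window sum (21.8 per kb, against 20.6 to 20.7).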

How the results depend on the processing

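No value reversed its sign past the test under 19 other settings or with 1 of 12 libraries left out. Over 51 named values, 774 interval outcomes kept their side of the threshold, 77 were lost and 1 was gained, and for window sums 469 were kept, 11 lost and 6 gained. The kept outcomes include those of values not called in the main fit, which could not be lost. The cause of each shift listed here was not tested. Fits with KO libraries averaged or as one group ask for an adjusted p under 0.05 in that group alone, a rule unlike that of the main fit. In Ctrl the 11 calls (2 higher, 9 lower) became 20 (5, 15) with the 8 KO libraries as one group (17.6% of all tested intervals). They became 4 (0, 4) without WT replicates 3 and 4 (3.33% of all, 2.04% higher and 1.29% lower). There were 3 (1, 2) at an absolute log2 change of at least 1, for which no share of all intervals is given. Windows of 5 kb held 5 (1, 4) and windows of 50 kb 22 (6, 16), with the 7.15% of all unchanged. Higher and lower calls were 1 and 14 with loess offsets (2.66% and 3.84% of all) and with edgeR (2.60% and 5.19%). Lower calls were 14 with KO libraries averaged (5.34% of all). Higher calls were 0 with DESeq2 (0.894% of all) and 1 with only WT and the line compared (2.73%). In Paused the 10 calls (3 higher, 7 lower) became 22 (7, 15) with the KO libraries as one group (28.7% of all) and 18 (5, 13) averaged (19.8%). They became 6 (4 lower) without WT replicates 1 and 2 (12.3% of all, 4.34% lower), and 2 (1, 1) at that fold, again with no share of all intervals given. Windows of 5 kb held 3 (1, 2) and windows of 50 kb 24 (11, 13), with the 13.9% of all unchanged. There were 6 (3 lower) where the member had to be the nearest gene, which drops the Wnt3 promoter for Wnt9b. That rule also leaves the 13.9% of all unchanged. Higher calls in Paused were 1 with loess offsets (4.61% of all) and with DESeq2 (2.39%). Lower calls were 11 with DESeq2 size factors (8.64% of all) and 13 with loess offsets (5.04%) and with edgeR (9.02%). Leaving out 1 library gave 6 to 15 calls in Ctrl (0 to 3 higher, 5 to 12 lower), where 4.92% to 7.59% of all were called. In Paused it gave 6 to 12 (1 to 4 higher, 4 to 8 lower), against 9.73% to 15.0% of all. Called gene windows were 1 to 2 in each, against 4.73% to 10.2% of all windows in Ctrl and 19.8% to 31.8% in Paused. Called windows were 2 in each table (8.35% of all windows in Ctrl, 27.1% in Paused), and 1 in Ctrl without WT replicates 3 and 4 (5.29%). In Paused they were 4 with DESeq2 size factors (50.5% of all windows) or TMM (47.9%), with Eomes and Fgf8 added. They were 1 with library totals (27.3%), edgeR (27.6%), DESeq2 (24.2%) or without WT replicates 1 and 2 (23.2%). With loess offsets Fgf8 was added and Lhx1 lost in Paused (21.2% of all windows), and windows of 50 kb also added Fgf8 (30.9%). Matched intervals fell from 71 to 54 at 80% overlap. Few same-numbered pairs correlated above 0.1 in their deviations (mean 0.03, from -0.006 to 0.11, in Ctrl and mean 0.05, from -0.007 to 0.19, in Paused). Between the KO lines the correlations were 0.01 to 0.11 in Ctrl and 0.03 to 0.19 in Paused. The main fit did not pair libraries by number. The chi-square values nevertheless set same-numbered KO libraries closest in Paused, so the 8 KO libraries cannot be taken as independent. With a replicate block, 12 Ctrl (2 higher, 10 lower) and 11 Paused (3 higher, 8 lower) intervals were called, against 7.97% and 16.2% of all. The intervals called higher had 2 to 21 WT reads a library.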
